A study of Mus musculus with 12 samples.

Results

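A set of 10 genes of canonical Wnt signaling was followed in sorted dermal papilla (DP) cells. They comprise the scaffolds Axin1, Axin2, Apc and Apc2, the kinases Gsk3a, Gsk3b and Csnk1a1, and the feedback inhibitors Nkd1, Nkd2 and Apcdd1. They were chosen by gene symbol, and all 10 were found in both tables of processed values, among 15209 protein-coding genes at postnatal day (P) 14 and 15334 at P16. All 10 passed the filter on low values (mean normalized reads of 10 or more) on both days.

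The destruction complex keeps canonical Wnt signaling off. Axin and APC proteins form its scaffold, on which casein kinase 1 alpha (the product of Csnk1a1) and then GSK3 phosphorylate beta-catenin, so that it is ubiquitinated and degraded. When a Wnt ligand binds Frizzled and LRP5 or LRP6, the complex is recruited to the membrane, beta-catenin accumulates and activates genes together with TCF/LEF factors. Some of the genes switched on are themselves inhibitors, and form negative feedback loops. Axin2 is the most widely used of these as a readout of pathway activity, while Nkd1 and Nkd2 bind Dishevelled, and Apcdd1 is a membrane glycoprotein that binds Wnt and LRP5. In the hair follicle, beta-catenin in the DP, the cluster of mesenchymal cells at the base of the follicle, is needed to keep the follicle growing.

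RNA was taken from control and dMF1/2 mice at P14 and P16, during growth (anagen) of the first hair coat, with 3 libraries in each of the 4 groups. The dMF1/2 mice, called mutants here, carry Cor-cre/+, with Cre knocked into the Corin locus and active in the DP after birth, and floxed Fgfr1 and Fgfr2 on both chromosomes. The labels call the controls wild type. The study's methods describe the control genotype that carries Cre as Cor-cre/+; Fgfr1Flox/+; Fgfr2Flox/+, so cells of such controls would have lost 1 copy of each receptor gene. All mice carried a Cre-dependent YFP reporter at ROSA26, and YFP-positive cells were sorted by FACS. The comparison asks how transcripts of the destruction complex and its feedback genes differ once DP cells lack both FGF receptors, on each day, and how they moved over those days in either genotype. Reads assigned to the listed protein-coding genes numbered 19302358 to 29860750 per library, with a median of 23062180.

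The targeted genes and the markers of cell types set the frame for every value. Fgfr1 had a mean of 10323 normalized reads in control and 7264 in mutant mice at P16, and Fgfr2 5079 and 5081, values over the whole gene that do not separate deleted from intact transcripts. Of the 18 DP markers, all 18 were in the tables, and their summed normalized reads lay between 143767 and 204536 in control and 124978 and 209621 in mutant mice at P14. At P16 the sums lay between 67245 and 116705 in control and 130210 and 186180 in mutant mice, and did not overlap. Of the single markers, 12 were higher in each mutant library of P16 than in any control library, 2 were lower (Crabp1 and Notum) and 4 overlapped. The list holds 6 Wnt pathway genes, the agonists Rspo2, Rspo3 and Rspo4 with Wif1, Lef1 and Notum. Rspo3 had 474 to 1282 normalized reads in P16 control and 6486 to 9830 in P16 mutant mice, whereas Notum, a secreted Wnt inhibitor, had 8140 to 10517 and 1668 to 5146. Without these 6 genes the P16 sums were 43752 to 72754 and 75030 to 106316, and still did not overlap. Of 10 dermal fibroblast markers, all 10 were present, with sums of 5125363 to 6845277 in P16 control and 4664289 to 6674855 in P16 mutant mice. The list includes collagen genes, which DP cells also express. The replicate 1 libraries of P14 stood apart in these sums, with 2590420 in control and 3186232 in mutant mice against 6514920 to 6735178 in the other 4 libraries of that day. Most of each sum was Col1a1 and Col3a1, with 1269142 and 1222147 normalized reads in P14 control replicate 1. Dcn and Lum were also lowest in replicate 1 of both genotypes at P14, whereas Pdgfra and Dlk1 were highest there. Of 19 keratinocyte markers, 13 were in the P16 table, with sums of 383 to 749 normalized reads in control and 571 to 698 in mutant mice. In percent of reads the dermal fibroblast list made up 23.0 to 24.6 of a group and the DP list 0.385 to 0.770. The keratinocyte list made up 0.00208 to 0.00324 and the dermal sheath list 0.117 to 0.160. Lists for melanocytes, endothelium, immune cells, skeletal muscle, adipocytes and Schwann cells made up 0.00115 to 0.0125 each. Krt25, Krt27, Krt33a, Krt73, Krt85 and Dsg4 were not among the genes of that table. In sorted bulk RNA, fewer cells of a type and less RNA per cell cannot be told apart, and the part of the DP marker sums in the differences below was not tested.

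Apcdd1 was the most abundant member and Apc2 the least in each of the 4 groups. Levels were compared between genes as rescaled reads per kilobase of exon, with the 12 libraries scaled together. In P14 control mice, Apcdd1 had 1851 ± 149 reads per kilobase (SD, n = 3), and no other member reached its lowest library. Nkd2 (844 ± 113) and Nkd1 (834 ± 117) followed, overlapping each other. Gsk3a (505 ± 31.7), Csnk1a1 (471 ± 23.2) and Axin2 (428 ± 49.1) formed the next step, with each overlapping the next in order. Axin1 (300.1 ± 29.5) and Gsk3b (292 ± 6.29) overlapped as well. Apc (137 ± 12.4) and Apc2 (26.3 ± 6.25) were each clear of their neighbors. In P16 mutant mice the same members held the top 3 and the last 2 places, and Axin2 took the fourth with 552 ± 102, overlapping both Nkd1 (662 ± 170.1) and Csnk1a1 (501 ± 13.2).

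**Figure D1:**
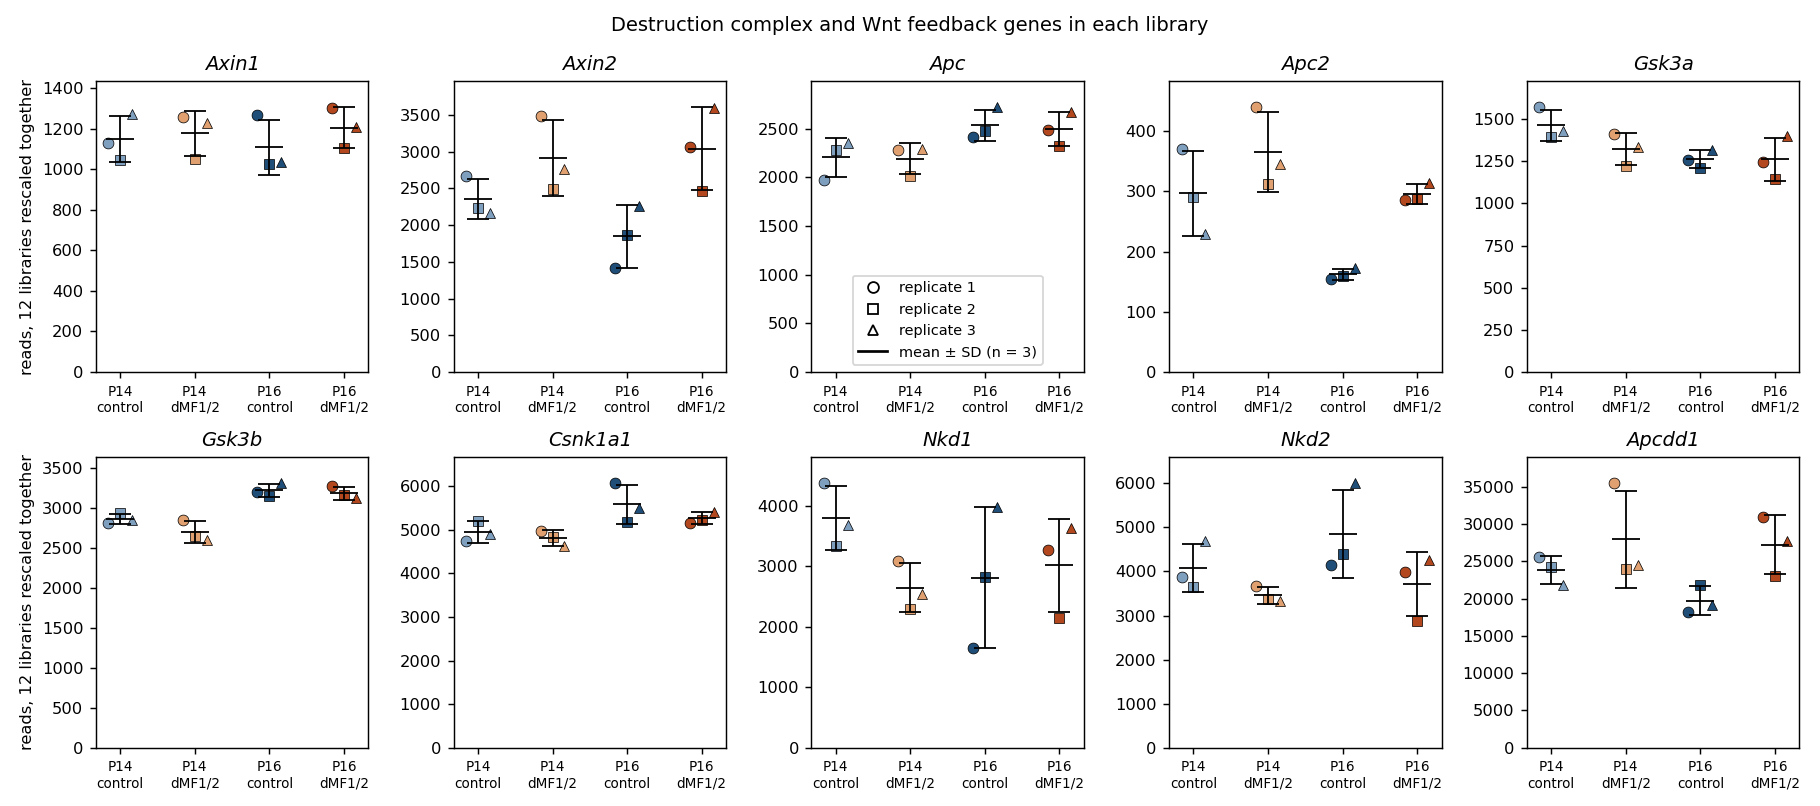
Reads of each gene in the 12 libraries, scaled together, with 1 panel per gene and a vertical axis that starts at 0. Symbols mark the replicate number, and horizontal bars mark mean ± SD of 3 libraries. Apc2 in P16 control mice (154 to 172 rescaled reads) lies below every other library, and the Gsk3b libraries of a day lie close together.

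Apc2, the paralog of the scaffold Apc, was the member that differed most between the genotypes, with more reads in mutants at P16. It lies at chr10:80295977-80318263 of mm10 on the plus strand. The 3 control libraries of P16 had 155, 162 and 173 normalized reads in replicates 1 to 3, and the 3 dMF1/2 libraries 291, 290.2 and 319. Each dMF1/2 library exceeded each control library by far more than the spread within either group. The fold was 1.83, a log2 ratio of 0.87 (SE 0.11, 95% interval 0.62 to 1.12, adjusted p = 0.00679 in limma), and it was 0.90, 0.84 and 0.87 in the numbered pairs of libraries. Of the 10 members, 1 passed the test at P16, beside 4.32% of the 13457 genes tested. Apc2 passed in each of the 15 alternative analyses, with adjusted p from 1.63e-06 to 0.0368.

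At P14 the 2 genotypes overlapped in Apc2. The control libraries had 363, 284 and 225 normalized reads and the dMF1/2 libraries 430.4, 307 and 339.9. Its log2 fold change was 0.32 (SE 0.20, 95% interval -0.16 to 0.79, adjusted p = 0.871 in limma). Each dMF1/2 library was above the control library of its number, which 34.5% of all genes also did in 1 direction or the other.

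Between the days, Apc2 fell in control mice. On the scale common to all libraries it went from 26.3 ± 6.25 to 14.4 ± 0.822 reads per kilobase, a log2 ratio of -0.84 (SE 0.17, adjusted p = 0.0100 in limma). Of the 10 members, 1 passed in this comparison, beside 14.5% of 13424 genes. DESeq2 called 2 members, Apc2 and Gsk3b, beside 19.6% of genes. The DP marker list went over the same days from 0.770% to 0.385% of reads in control and from 0.730% to 0.636% in mutant mice, and its part in the fall of Apc2 was not tested. The call of Apc2 held in each of the 16 alternatives, the one without the replicate 1 libraries of P14 included. In dMF1/2 mice it went from 32.4 ± 5.85 to 26.2 ± 1.44, a log2 ratio of -0.29 (SE 0.17, adjusted p = 0.335 in limma). The difference between these changes, tested as the interaction of genotype and day, was 0.55 on the log2 scale (95% interval 0.03 to 1.07), with an unadjusted p of 0.0395 in limma and an adjusted p of 1. A different response over time in the genotypes was therefore not established for Apc2.

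Set against Apc in the same library, Apc2 made up a small and changing share. The ratio of reads per kilobase of Apc2 to Apc was 0.0926, 0.0914 and 0.0906 at its highest, middle and lowest in P16 control mice, a mean of 0.0915 ± 0.000979 (SD, n = 3). In P16 mutant mice it was 0.170 ± 0.00631, with a lowest value of 0.164. At P14 it was 0.196 ± 0.0654 in control and 0.238 ± 0.0326 in mutant mice, and these overlapped. Its highest value in any of the 12 libraries was 0.275, so Apc was the more abundant of the pair throughout.

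The 3 genes whose log2 levels ran closest to Apc2 over the 12 libraries were Emc8 (Pearson's r = 0.98), Scube3 (r = 0.98) and Thsd7a (r = 0.98). The 12 points share 4 groups and the scaling, so the correlations describe the pattern of group means as much as that of single libraries.

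The sequences before the start sites of Apc2 and Axin2 are shown because both genes were higher in each dMF1/2 library of P16. They are the 250 bases before the start in RefSeq (GRCm38.p6), on the plus strand, at chr10:80295706-80295955 and chr11:108920099-108920348. Capitals mark CTTTG or its reverse complement CAAAG, the core of the motif bound by TCF/LEF factors.
Apc2: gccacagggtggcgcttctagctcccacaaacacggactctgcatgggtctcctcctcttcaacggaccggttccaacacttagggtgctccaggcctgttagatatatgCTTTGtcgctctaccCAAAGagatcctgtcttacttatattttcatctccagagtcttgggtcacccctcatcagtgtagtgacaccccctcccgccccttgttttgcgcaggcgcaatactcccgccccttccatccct
Axin2: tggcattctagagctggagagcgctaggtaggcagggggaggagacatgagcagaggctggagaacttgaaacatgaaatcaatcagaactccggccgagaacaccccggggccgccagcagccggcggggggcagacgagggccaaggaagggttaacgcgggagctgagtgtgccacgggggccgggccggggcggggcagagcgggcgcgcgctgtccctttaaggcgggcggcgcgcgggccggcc
The Apc2 window holds the core at -140 and, reversed, at -125 from the start site, while the Axin2 window holds none. The core alone is found in 48.6% of 32851 such windows, so its presence is common. The longer motif CTTTGAA or CTTTGAT, on either strand, is in 7.48% of them. Windows of 6 members were matched (Gsk3a, Gsk3b, Apc2, Axin2, Nkd1 and Nkd2), and of these only that of Gsk3a holds the longer motif. The core is also in the windows of Gsk3a (at -156) and Gsk3b (at -76), 2 genes that differed little between the genotypes. Apc2 has 4 windows, of which another, at chr10:80300792-80301041, holds the core at -58 and -19, and the other 2 hold none. Entries for Axin1, Apc, Csnk1a1 and Apcdd1 were not used here.

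Axin2, a scaffold and a feedback target in one, was 1.67-fold higher in mutant mice at P16, a difference that passed the test once numbered pairs were taken into account and in DESeq2, but not in the main analysis. The gene lies at chr11:108920349-108950783 on the plus strand. The control libraries of P16 had 1422, 1888 and 2275 normalized reads, and the dMF1/2 libraries 3115, 2495 and 3634. The groups did not overlap, and the pair of replicate 1 was the farthest apart, with log2 ratios of 1.13, 0.40 and 0.68 in replicates 1 to 3. This gave a log2 fold change of 0.74 (SE 0.19, 95% interval 0.30 to 1.17), with adjusted p = 0.0745 in limma. Blocked on replicate number, limma gave an adjusted p of 0.0182, where 10.4% of all genes passed, and over the 15 alternatives it ran from 0.00529 (DESeq2) to 0.213. Of all genes, DESeq2 called 8.51% and edgeR 4.48%, and edgeR called no member but Apc2. An exact permutation test of the 3 against 3 libraries gave p = 0.1, the smallest it can give.

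At P14 Axin2 had 2615, 2187 and 2127 normalized reads in control and 3412, 2449.6 and 2716 in mutant mice. The dMF1/2 library was higher in each pair, by 0.38, 0.16 and 0.35 on the log2 scale, but the groups overlapped. In limma its log2 fold change was 0.30 (SE 0.15, 95% interval -0.04 to 0.64, adjusted p = 0.764). From P14 to P16 the log2 fold change was -0.37 in control (SE 0.19, adjusted p = 0.199 in limma) and 0.06 in mutant mice (SE 0.19, adjusted p = 0.888 in limma). The interaction was 0.43 with a 95% interval from -0.15 to 1.02, which spans 0.

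Its paralog Axin1, the constitutive scaffold at chr17:26138688-26195811, overlapped between the genotypes on both days. It had 1276, 1035 and 1040.3 normalized reads in P16 control and 1324, 1115 and 1223 in P16 mutant mice. The log2 fold change was 0.13 (95% interval from -0.12 to 0.39, adjusted p = 0.604 in limma). At P14 it had 1107, 1026 and 1246 normalized reads in control and 1230, 1034 and 1206 in mutant mice, a log2 ratio of 0.04 (95% interval -0.22 to 0.30). The ratio of Axin2 to Axin1, per kilobase, was 0.775 to 1.52 in P16 control and 1.56 to 2.07 in P16 mutant mice. At P14 it was 1.19 to 1.64 and 1.57 to 1.93, with an overlap.

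**Figure D2:**
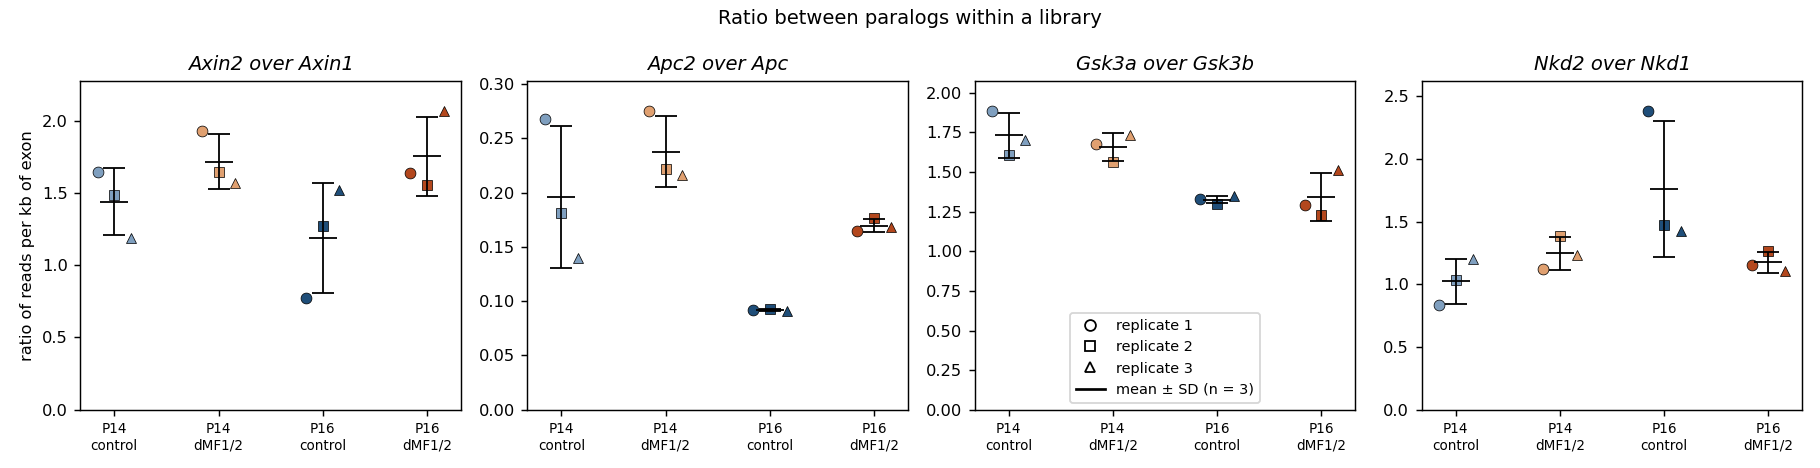
Ratio of reads per kilobase of exon between paralogs within each library, for 4 pairs of genes in the 4 groups, with mean ± SD of 3 libraries. The Apc2 to Apc ratio in P16 control mice (0.0906 to 0.0926) is the tightest group and the lowest, and the Gsk3a to Gsk3b ratio is lower on P16 than on P14 in both genotypes.

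Apc, the large scaffold at chr18:34220924-34322189, differed little between the genotypes. At P16 it had 2429, 2496 and 2732 normalized reads in control and 2529, 2349 and 2708 in mutant mice. Its log2 fold change was -0.01 with a 95% interval from -0.22 to 0.19, so a difference inside that range was not excluded. At P14 it had 1938, 2237 and 2306 normalized reads in control and 2234, 1977 and 2251 in mutant mice, a log2 ratio of -0.003 (95% interval -0.24 to 0.24). Between the days the log2 fold changes were 0.20 in control and 0.19 in mutant mice. Every P16 library lay above every P14 library in both genotypes, yet limma's adjusted p was 0.162 and 0.263.

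Of the kinases, which phosphorylate beta-catenin, Gsk3b varied the least of all members in both control groups, and Csnk1a1 in both mutant groups (3.47% at P14 and 2.53% at P16, coefficient of variation). The gene lies at chr16:38089001-38246084, and the coefficient of variation of Gsk3b was 2.08% to 4.76% in the 4 groups. At P16 it had 3230, 3190 and 3333 normalized reads in control and 3325, 3193 and 3164 in mutant mice. This gave a log2 fold change of -0.01, with a 95% interval from -0.18 to 0.16. At P14 the values were 2766, 2879 and 2794 in control and 2800, 2610 and 2560 in mutant mice, a log2 ratio of -0.08 (95% interval -0.27 to 0.10). With the days scaled together, every P16 library was above every P14 library of its genotype, with a log2 ratio of 0.17 in control (adjusted p = 0.104 in limma) and 0.24 in mutant mice (adjusted p = 0.0571 in limma). DESeq2 gave adjusted p = 0.0337 and 0.00390, and in mutant mice limma's adjusted p was 0.0478 without P14 dMF1/2 replicate 1. No other member was called in mutant mice between the days, where limma called 0 of 10 and 5.75% of all genes, and 1 member had an unadjusted p under 0.05, beside 22.8% of genes. DESeq2 called 1 member, Gsk3b, and 10.4% of genes, and edgeR none of the members and 5.72% of genes. In control mice 4 of the 10 members had days that did not overlap (Apc and Gsk3b higher, Apc2 and Gsk3a lower on P16), beside 36.0% of all genes, and in mutants 3 of the 10 (Apc, Gsk3b and Csnk1a1, each higher), beside 27.6%.

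Gsk3a, at chr7:25228258-25237851 on the minus strand, also differed little between the genotypes. It had 1267, 1225 and 1324 normalized reads in P16 control and 1266, 1156 and 1415 in P16 mutant mice, a log2 ratio of 0.00 with a 95% interval from -0.21 to 0.22. At P14 it had 1539, 1367 and 1402 in control and 1384, 1202 and 1311 in mutant mice, a log2 ratio of -0.15 (95% interval -0.36 to 0.07). From P14 to P16 the log2 fold change was -0.21 in control (adjusted p = 0.132 in limma) and -0.07 in mutant mice (adjusted p = 0.713 in limma). Per kilobase, Gsk3a stood at 1.73 ± 0.141 times Gsk3b in P14 control, 1.66 ± 0.0881 in P14 dMF1/2, 1.33 ± 0.0229 in P16 control and 1.34 ± 0.152 in P16 mutant mice (SD, n = 3 each). Its level is less certain than the others, since an antisense gene, 9130221H12Rik, covers 28.3% of its exon bases and the strand setting of the read counting was not given in the sources used here. For Axin2 an antisense gene, Gm11670, covers 3.80% of exon bases.

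Csnk1a1, the priming kinase at chr18:61555274-61590061, had 6118, 5239 and 5532 normalized reads in P16 control and 5234, 5270 and 5484 in P16 mutant mice. The groups overlapped, with a log2 ratio of -0.08 (95% interval -0.28 to 0.13, adjusted p = 0.724 in limma). At P14 it had 4642, 5106 and 4808 in control and 4878, 4760 and 4554 in mutant mice, a log2 ratio of -0.04 (95% interval -0.24 to 0.16). Between the days its log2 fold change was 0.17 in control and 0.13 in mutant mice, with limma's adjusted p of 0.162 and 0.376.

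**Figure D3:**
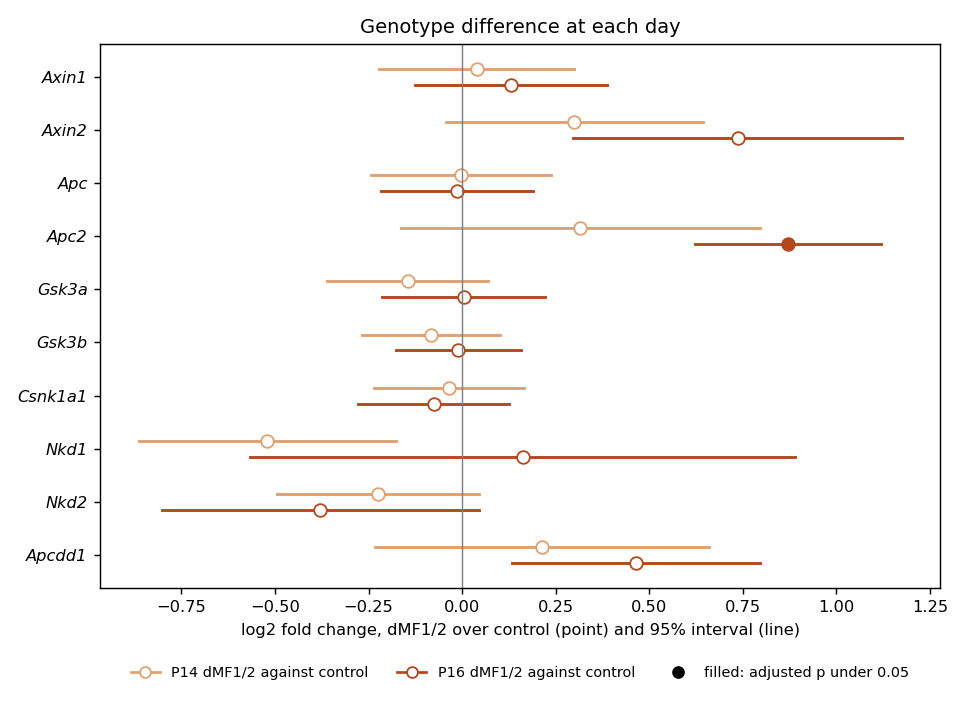
Log2 fold change of dMF1/2 over control mice for the 10 members at P14 and P16, with 95% intervals from limma, and filled points for adjusted p under 0.05. Apc2 at P16 (0.87) is the only filled point, and Axin1, Apc and the 3 kinases stay near 0 on both days.

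None of the feedback inhibitors Apcdd1, Nkd1 and Nkd2 passed limma's test between the genotypes on either day without the block. Apcdd1, at chr18:62922327-62953195, had more reads in each mutant library of P16 than in any control library. Its control libraries had 18326, 22084 and 19301 normalized reads and its dMF1/2 libraries 31409, 23234 and 28152. The groups did not overlap, although dMF1/2 replicate 2 lay close to control replicate 2. In limma its log2 fold change was 0.47 (SE 0.14, 95% interval 0.13 to 0.80, adjusted p = 0.119), and the adjusted p over the 15 alternatives ran from 0.0171 (DESeq2) to 0.315. At P14 the libraries had 25059, 23716 and 21346 normalized reads in control and 34771, 23612 and 24075 in mutant mice. Only replicate 1 of the dMF1/2 mice stood out, and the log2 fold change was 0.21 (95% interval -0.23 to 0.66, adjusted p = 0.930 in limma). Between the days it was -0.27 in control and -0.03 in mutant mice (adjusted p = 0.296 and 0.952 in limma).

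In all, 3 of the 10 members (Axin2, Apc2 and Apcdd1) had P16 groups that did not overlap, each higher in mutant mice, beside 12.9% of all genes higher in that way. The DP marker sums were also higher in mutant mice at P16, and their part in these differences was not tested.

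Nkd1, which restrains Dishevelled, had fewer reads in each mutant library of P14 than in any control library. The gene lies at chr8:88521344-88594887. The control libraries of P14 had 4294, 3264 and 3615 normalized reads and the dMF1/2 libraries 3025, 2258 and 2510.5. The groups did not overlap, as for 12.7% of all genes in either direction, and the log2 ratios of the pairs were -0.51, -0.53 and -0.53. The log2 fold change was -0.52 (SE 0.15, 95% interval -0.86 to -0.18), with adjusted p = 0.400 in limma. Blocked on replicate number, the standard error was 0.07 and the adjusted p in limma 0.0146, where 1.68% of all genes passed. Over the 16 alternatives the adjusted p ran from 0.0146 to 0.973. Without the block, limma called none of the 10 members at P14, beside 0.0525% of 13334 genes, and 1 of them, Nkd1, had an unadjusted p under 0.05, beside 7.32% of all genes. DESeq2 and edgeR called none of them either, beside 1.55% and 0.0525% of all genes. The DP marker sums of the genotypes overlapped on that day. Of the 18 single markers, 3 (Vcan, Crabp1 and Notum) were lower in each mutant library of P14 than in any control library. Another 2 (Alpl and Prom1) were higher and 13 overlapped.

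At P16 Nkd1 scattered so widely that no difference could be seen. The control libraries had 1658, 2849 and 4005 normalized reads and the dMF1/2 libraries 3319, 2169 and 3680. The coefficient of variation in control was 41.4%, beside a median of 7.57% over 3512 genes whose mean was 1000 normalized reads or more. Its log2 fold change was 0.16 (SE 0.32, 95% interval -0.57 to 0.89, adjusted p = 0.852 in limma), and it was -0.18 without P16 control replicate 1. The difference between the P16 and P14 effects was 0.68 with a 95% interval from -0.20 to 1.55 (adjusted p = 1 in limma), and limma called 0 of 10 members in the interaction and 0.0% of all genes. At an unadjusted p under 0.05 the interaction held 1 member, Apc2, and 4.83% of all genes. DESeq2 and edgeR called none of the members, beside 0.0522% and 0.0% of all genes.

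Nkd2, which also binds Dishevelled, was lower in the dMF1/2 library of all 6 numbered pairs, but within the spread. Of all genes, 34.5% at P14 and 48.1% at P16 had the same sign in the 3 pairs of a day. It lies at chr13:73818534-73847631 on the minus strand. At P16 it had 4184, 4435 and 6038 normalized reads in control and 4056, 2912 and 4311 in mutant mice. At P14 it had 3803, 3574 and 4595 in control and 3605, 3316 and 3276 in mutant mice. The groups overlapped on both days. This gave a log2 fold change of -0.22 at P14 (SE 0.11, adjusted p = 0.794 in limma) and -0.38 at P16 (SE 0.18, adjusted p = 0.321 in limma). Between the days it was 0.24 in control and 0.08 in mutant mice (adjusted p = 0.352 and 0.823 in limma). The ratio of Nkd2 to Nkd1 per kilobase was 1.02 ± 0.182 in P14 control, 1.25 ± 0.132 in P14 dMF1/2, 1.76 ± 0.541 in P16 control and 1.18 ± 0.0832 in P16 mutant mice.

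**Figure D4:**
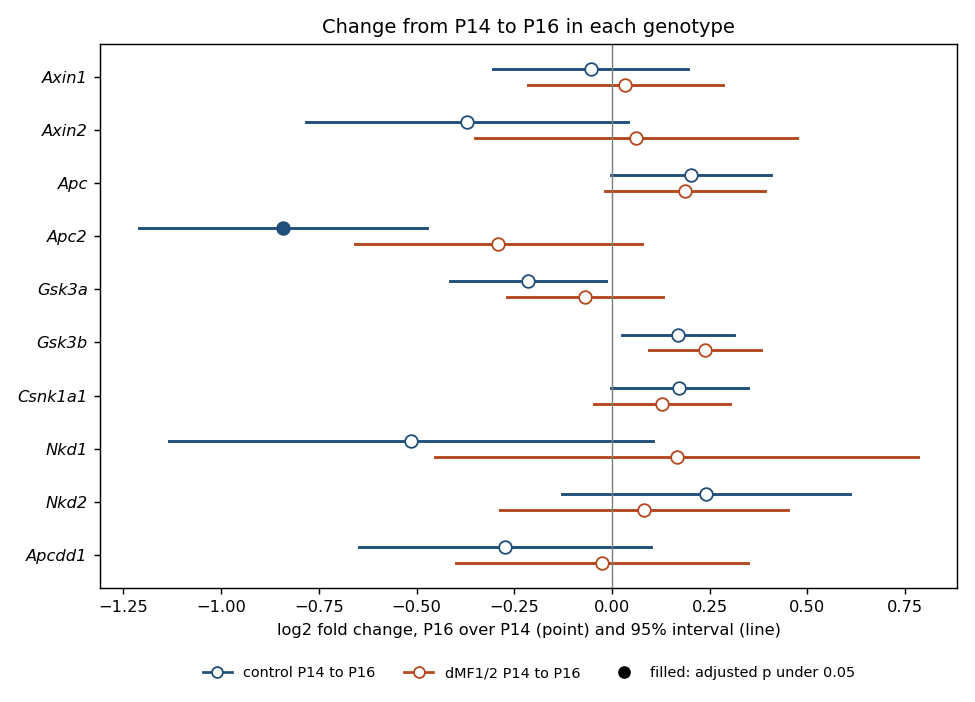
Log2 fold change from P14 to P16 for the 10 members in control and in mutant mice, with 95% intervals from limma on the 12 libraries scaled together, and filled points for adjusted p under 0.05. Apc2 in control mice (-0.84) is the only filled point, and Apc and Gsk3b lie to the right of 0 in both genotypes.

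Within groups, Axin2 and Nkd1 ran in parallel from library to library. In P16 control mice replicate 1 was the lowest and replicate 3 the highest in both genes, and in P16 mutant mice replicate 2 was the lowest and replicate 3 the highest. In both P14 groups replicate 1 was the highest in both genes. These are the libraries that stood apart with the lowest dermal fibroblast sums, mostly of collagen reads, and the highest DP sums of that day. Measured as log2 deviations from the group mean, Pearson's r was 0.95 and Spearman's rho 0.97 over the 12 libraries, with r = 0.94 at P14 and r = 0.98 at P16. Without the 2 libraries farthest from the median of Axin2, r was 0.94, and without both replicate 1 libraries of P14 it was 0.97 over the other 10. When the numbered pairs were kept together and shuffled within days, which gives 36 arrangements, the exact permutation p was 0.0278 for both r and rho, the smallest that they can give. Axin2 with Apc2, Gsk3a and Apcdd1, and Gsk3a with Nkd1, reached the same p for r. This pair was picked after the values were seen, as the highest of the 45 pairs of members, and its Benjamini-Hochberg adjusted p over these was 0.25. Of 13423 other genes, Nkd1 ranked 11th in the correlation of deviations with Axin2. By the same measure the kinase gene Gsk3a was the next of the members (r = 0.79), followed by Nkd2 (r = 0.70), Apc2 (r = 0.68) and Apcdd1 (r = 0.68), then Apc (r = 0.46), Gsk3b (r = 0.38), Axin1 (r = -0.07) and Csnk1a1 (r = -0.27), so the higher values were not limited to feedback genes.

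The DP marker sums followed this order in part, and more closely at P14. In P14 control mice they were 204536, 169350 and 143767 in replicates 1 to 3, the order of Axin2 but not of Nkd1 in the last 2 places. In P14 mutant mice they were 209621, 124978 and 149474, the order of both genes. In P16 control mice they were 67245, 116705 and 108310 in replicates 1 to 3, so that the library lowest in Axin2 and Nkd1 was also lowest in the markers, while the highest was not the same. In P16 mutant mice they were 130210, 140055 and 186180, highest in the same library as both genes but lowest in another. The part of the markers in the relation was not tested.

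**Figure D5:**
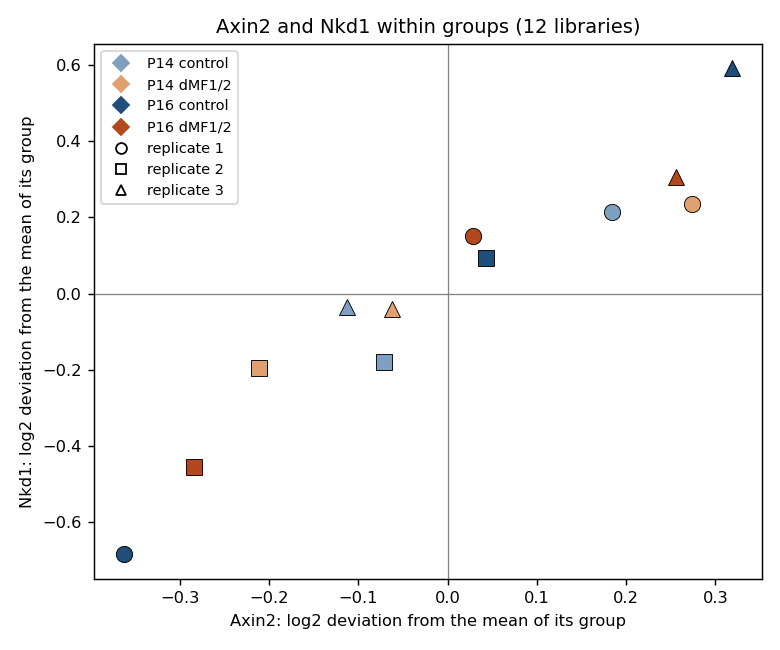
Log2 deviation from the group mean of Axin2 (horizontal) and Nkd1 (vertical) in each of the 12 libraries, with colors for the groups and symbols for replicate numbers. The points run along 1 diagonal (r = 0.95), from P16 control replicate 1 at the lower left to P16 control replicate 3 at the upper right.

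The rest of the pathway was read from 2 lists of genes. The partners of the destruction complex (beta-catenin, LRP co-receptors, Dishevelled, further casein kinases, phosphatase subunits, tankyrases and ubiquitin ligases) numbered 42, of which 39 were tested. At P16, 1 of the 39 fell and none rose in mutant mice, beside 4.32% of all genes in either direction. It was Ctnnb1, which encodes beta-catenin, the substrate of the complex, with 17556 ± 2019 normalized reads in control and 11126 ± 1156 in mutant mice (SD, n = 3), a log2 ratio of -0.66 (SE 0.12, adjusted p = 0.0275 in limma). The median log2 fold change of the 39 was -0.02, against -0.004 over all genes. With the block 4 of the 39 were lower and none higher, beside 10.4% of all genes in either direction, which is about the same share.

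The list of other feedback inhibitors and widely induced Wnt targets numbered 34, of which 28 were tested. At P16, 1 rose and 3 fell, beside 4.32% of all genes in either direction. Rnf144a, a ubiquitin ligase gene, rose from 1189 ± 122 to 2062 ± 407 normalized reads (log2 fold change 0.78, adjusted p = 0.0316 in limma). Nedd9, an adhesion scaffold, fell with a log2 ratio of -0.90 (adjusted p = 0.00957 in limma). Twist1, a mesenchymal transcription factor, had a log2 ratio of -0.67 (adjusted p = 0.0169 in limma), and Myc, the growth regulator, -0.86 (adjusted p = 0.0426 in limma). The median of the 28 was 0.02. With the block 5 were higher and 7 lower, beside 10.4% of all genes, so the targets that passed lay in both directions in either analysis.

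At P14 limma called none of either list, with 2 of the 39 partners and 6 of the 28 targets at an unadjusted p under 0.05, beside 7.32% of all genes. DESeq2 called none of the partners, and 1 target higher and 3 lower, as did limma with the block, beside 1.55% and 1.68% of all genes. EdgeR called none. From P14 to P16, 3 partners rose and 2 fell in control mice, while 2 targets fell, beside 14.5% of all genes, so neither list exceeded the share over all genes. In dMF1/2 mice 2 partners rose and 1 target fell over the same time, beside 5.75% of all genes, again with neither list above it. The medians of the partners were 0.11 and 0.08 in these comparisons, and those of the targets 0.08 and -0.06, against 0.01 over all genes in each.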

How the data were processed

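The data are 12 RNA-seq libraries of YFP-positive DP cells, 3 per genotype and day. Ribosomal RNA was depleted by the authors, who made stranded libraries, trimmed single-end reads with Trimmomatic, mapped them with Tophat version 2 to mm10, counted reads per Ensembl gene with HTSeq-count and scaled them with DESeq2. The deposited signal values are reads divided by a size factor, with 1 table per day. Whole reads were recovered from 100% of values, within 0.001 of a whole number. Columns with the authors' own fold changes, test scores and p-values were not used.

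The members and gene lists were chosen with earlier results of these data known. Each member is named, with other list genes only where they passed in a genotype comparison, and genes of similar pattern only for a member that passed. Genotypes were compared within a day in the deposited scaling, with limma 3.58.1 (R 4.3.3, mean-variance trend) on log2 of the value plus 1 in genes whose mean was 10 or more. Fold changes are on that scale. P-values were adjusted over all genes by the Benjamini-Hochberg method, with a threshold of 0.05. Days and the interaction were fitted on 12 libraries, with recovered reads of 14986 shared genes rescaled together. Permutation tests were exact and two-sided. The fit was tested on simulated data. Exon lengths came from the GENCODE annotation of GRCm38.

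Same-numbered libraries deviated together within a day, with correlations across genes of 0.586, 0.389 and 0.304 at P14 and 0.256, 0.293 and 0.311 at P16, so the number was tried as a block, which is quoted beside the results whose call it alters. Other alternatives were DESeq2 1.42.0, edgeR 4.0.16, TMM scaling, pseudocounts of 0.1 and 10, other filters, other library sets in the fit and leaving out each library. Leaving out both replicate 1 libraries of P14, summing the DP markers without 6 Wnt genes, and searching the shorter motif CTTTG, were chosen after seeing the data.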

Additional observations from a re-analysis of the deposited data

How the results depend on the processing

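Of the members, Apc2 kept its direction and its call in every alternative at P16 and from P14 to P16 in control mice. The number of members that passed was 0 at P14 and 1 with the replicate block (Nkd1). At P16 it was 1, with 2 under the replicate block and 3 in DESeq2. From P14 to P16 in control mice it was 1, and 2 in DESeq2. In mutant mice it was 0, and 1 (Gsk3b) in DESeq2 and without both replicate 1 libraries of P14, and it ran from 0 to 1 when single libraries were left out. The block, which for the change over days was a random effect of numbered pairs, changed no other member's call. Over all genes it moved the count at P14 from 7 to 224 and at P16 from 582 to 1403, and DESeq2 gave 207 and 1123.

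Members near 0 changed sign. Without both replicate 1 libraries of P14, the log2 fold change was -0.018 for Axin1 at P14, 0.16 for Apcdd1 from P14 to P16 in mutants, and 0.091 for Apc and 0.012 for Csnk1a1 in the interaction. In the fit of all 12 libraries it was -0.0030 for Gsk3a at P16. With single libraries left out, the range at P14 was -0.026 to 0.12 for Axin1, -0.079 to 0.058 for Apc and -0.067 to 0.0015 for Csnk1a1. At P16 it was -0.065 to 0.038 for Apc, -0.071 to 0.074 for Gsk3a, -0.032 to 0.0074 for Gsk3b and -0.18 to 0.46 for Nkd1. From P14 to P16 it was -0.15 to 0.020 for Axin1 in control mice, and in mutants -0.046 to 0.096 for Axin1, -0.067 to 0.20 for Axin2, -0.027 to 0.25 for Nkd2 and -0.12 to 0.16 for Apcdd1. In the interaction it was -0.077 to 0.062 for Apc, -0.096 to 0.017 for Csnk1a1 and -0.27 to 0.014 for Nkd2. None of these passed the test in any alternative, and the causes were not tested. Each library came from 1 mouse by the paper's account. With 3 libraries a group, p-values rest on the spread between libraries, which may be partly technical. Limma also draws on the spread of other genes, and its fit of 12 libraries on that of all 4 groups. The exact permutation test of 3 against 3 libraries cannot pass 0.05.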
